A study of Homo sapiens with 32 samples.

Results

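The genes described here carry proteins into the endoplasmic reticulum (ER), attach their N-linked glycans and remove them when they fail to fold. They were taken by symbol as 39 named genes out of 58721 genes in the deposited tables, and all 39 were found. They form 4 subgroups. The translocation subgroup has 14 genes: the Sec61 channel (SEC61A1, SEC61B, SEC61G), its partners SEC62 and SEC63, the translocon-associated protein complex TRAP (SSR1, SSR2, SSR3, SSR4) and signal peptidase (SPCS1, SPCS2, SPCS3, SEC11A, SEC11C). The signal recognition particle (SRP) subgroup has 8 genes, the SRP proteins SRP9, SRP14, SRP19, SRP54, SRP68 and SRP72 and the receptor subunits SRPRA and SRPRB. The oligosaccharyltransferase (OST) subgroup has 7 genes, STT3A, STT3B, RPN1, RPN2, DDOST, DAD1 and OSTC. The ER-associated degradation (ERAD) subgroup has 10 genes, HERPUD1, SEL1L, SYVN1, DERL1, DERL2, DERL3, EDEM1, EDEM2, EDEM3 and OS9.

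The cells were HEK293T, a human embryonic kidney line, treated for 16 h with 600 nM thapsigargin (Tg), which blocks the calcium pump of the ER and so causes ER stress, or with the solvent DMSO. RNA-Seq of polyadenylated RNA had 4 groups of 2 libraries: DD cells with Tg, WT cells with Tg, DD cells with DMSO and WT cells with DMSO. DD cells carried eIF3d with the changes S528D and S529D, which mimic phosphorylation, and WT cells carried wild-type eIF3d, a subunit of initiation factor eIF3 with a cap-binding domain. Subunit-Seq had 4 further groups of 2 libraries from cells labelled HA-eIF3d-TEV: RNA recovered with the cap-binding domain of eIF3d (IP) with Tg, IP with DMSO, input RNA with Tg and input RNA with DMSO. N6-methyladenosine was mapped by m6A-eCLIP in DD and WT cells with Tg and with DMSO, in 16 libraries, and 1 list of called sites for each of those 4 conditions was used here. The labels do not say whether a cell line was 1 clone or how eIF3d was expressed in it.

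A protein bound for the ER is met at the ribosome by SRP, which holds its signal peptide, slows its synthesis and docks at the SRP receptor on the ER membrane. The chain then enters the Sec61 channel, signal peptidase cuts off the signal peptide, and oligosaccharyltransferase transfers a preassembled glycan to asparagine residues. Chains that do not fold are trimmed of mannose, recognised by lectins, passed back across the membrane and ubiquitinated, which is ERAD. ER stress activates the sensors IRE1, PERK and ATF6, and the transcription factors XBP1, ATF4 and ATF6 then raise the output of many genes of this machinery.

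Depth behind the values was 4508483 to 10163214 reads per RNA-Seq library and 5102852 to 16860637 reads per Subunit-Seq library. The listed genes held from 1 to 14884 reads per RNA-Seq library and from 4 to 30373 reads per Subunit-Seq library, and none was at 0 in any library. Mitochondrial ribosomal RNA took 25.4% to 57.3% of RNA-Seq reads, with the highest share in DD Tg replicate 2, which stood apart from the other RNA-Seq libraries. Input DMSO replicate 2 also stood apart, with 6395 genes at 1 RPKM (reads per kilobase of gene, scaled to library size) or more, against 11452 in input DMSO replicate 1. All 5 HEK293T markers were detected in every library, KRT18 at 6.84 to 58.0 RPKM, VIM at 15.2 to 55.0, KRT8 at 0.221 to 8.45, LIN28B at 0.536 to 9.63 and NEFM at 0.069 to 86.3 RPKM, and the leukocyte markers PTPRC and CD3E were at 0 in all 16. The summed level of 8 markers of other cell types ranged from 0.434 RPKM in DD DMSO replicate 2 to 23.7 RPKM in IP DMSO replicate 1, where COL1A2 alone had 20.7 RPKM. Nothing in the labels says that replicates were separate cultures, so p-values measure only the spread between these samples. In bulk RNA, fewer cells of a kind and less RNA per cell cannot be told apart.

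Across the 8 RNA-Seq libraries the OST genes had the highest levels and the ERAD genes the lowest. The median of the mean levels was 67.0 RPKM for the OST genes, from 7.91 RPKM for STT3B to 192 RPKM for DAD1. It was 21.8 RPKM for the translocation genes, from 4.10 RPKM for SPCS3 to 167 RPKM for SSR4. It was 9.30 RPKM for the SRP genes, from 1.10 RPKM for SRP19 to 135 RPKM for SRP9. For the ERAD genes it was 3.01 RPKM, from 0.808 RPKM for DERL3 to 15.2 RPKM for HERPUD1. DERL3, a derlin of the ERAD channel, was under the limit of a mean of 1 RPKM needed for testing in RNA-Seq. SRP19, an SRP protein that helps SRP54 onto the SRP RNA, and SEL1L, the adapter of the ubiquitin ligase SYVN1, were under the same limit in the Subunit-Seq inputs. That left 38 genes tested in RNA-Seq and 37 in Subunit-Seq.

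The most abundant genes of each subgroup often varied widely between the 2 libraries of a group. SSR4, the delta subunit of TRAP, had 90.6 and 24.5 RPKM in DD Tg libraries, 121 and 416 RPKM in WT Tg, 129 and 131 RPKM in DD DMSO, and 103 and 320 RPKM in WT DMSO. SEC61B, a small subunit of the channel, had 122 and 26.8 RPKM in DD Tg, 98.6 and 152 RPKM in WT Tg, 125 and 66.0 RPKM in DD DMSO, and 118 and 140 RPKM in WT DMSO. For both genes DD Tg replicate 2 was the lowest of the 8 libraries. SRP9, which binds the Alu domain of the SRP RNA with SRP14, had 199 and 94.8 RPKM in DD Tg, 191 and 114 RPKM in WT Tg, 156 and 63.4 RPKM in DD DMSO, and 192 and 71.4 RPKM in WT DMSO. SRP14 had 106 and 97.4 RPKM in DD Tg, 94.9 and 80.1 RPKM in WT Tg, 116 and 121 RPKM in DD DMSO, and 129 and 68.2 RPKM in WT DMSO. SRP9 was higher in replicate 1 than in replicate 2 of every RNA-Seq group, and SRP14 was so in 3 of the 4. DAD1, a small OST subunit, had 260 and 48.8 RPKM in DD Tg, 207 and 180 RPKM in WT Tg, 215 and 182 RPKM in DD DMSO, and 291 and 151 RPKM in WT DMSO. OSTC, which links the STT3A form of OST to the channel, had 156 and 29.3 RPKM in DD Tg, 111 and 82.7 RPKM in WT Tg, 144 and 45.5 RPKM in DD DMSO, and 118 and 43.6 RPKM in WT DMSO. Both OST genes were lowest, among all 8 libraries, in DD Tg replicate 2.

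**Figure D1:**
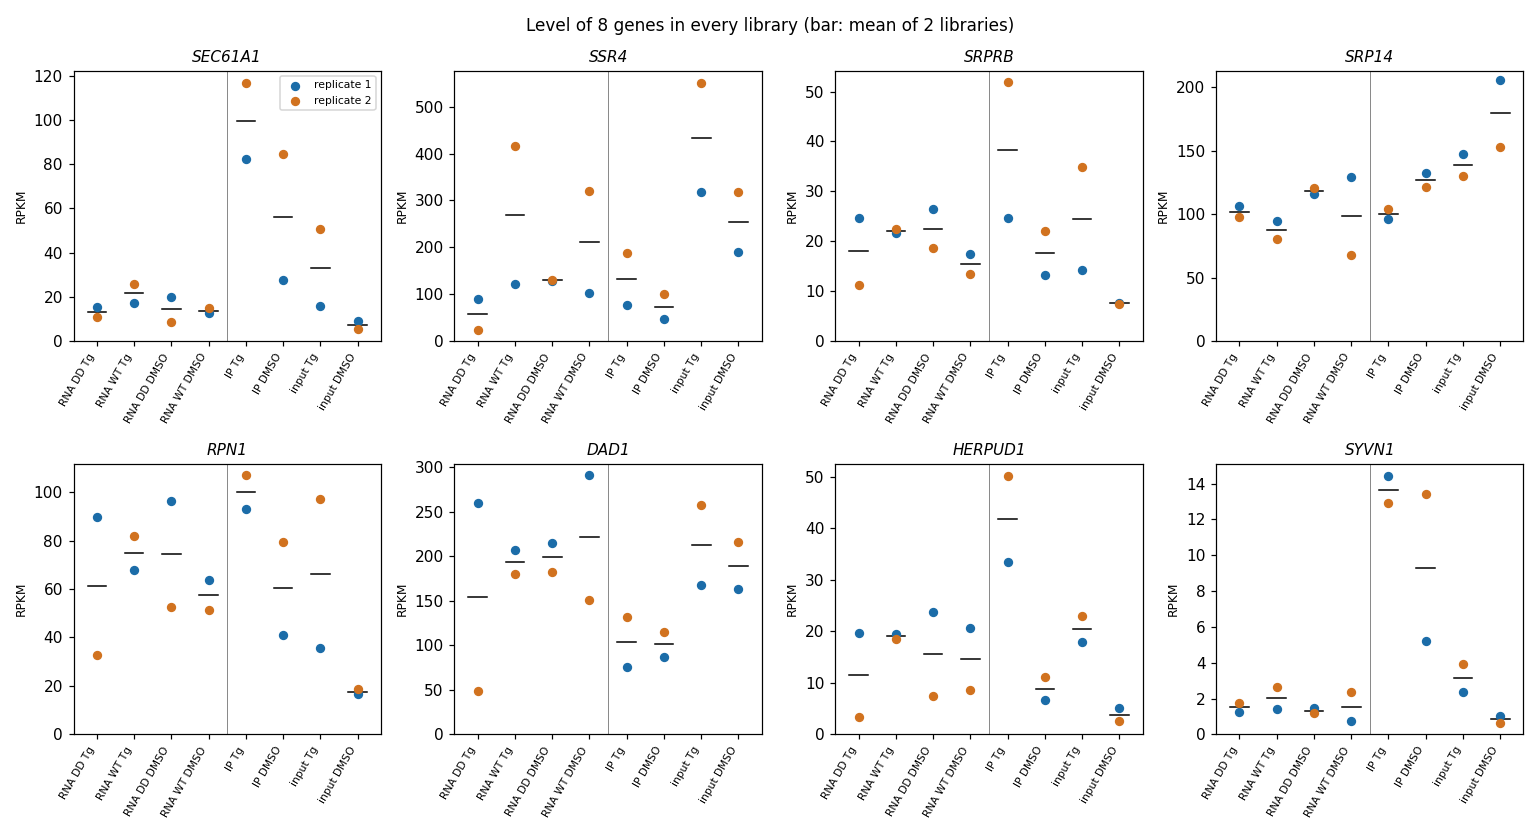
RPKM of 8 genes in each library (points, coloured by replicate number) with the mean of the 2 libraries of a group (bar); RNA-Seq groups lie left of the grey line and Subunit-Seq groups right of it. SEC61A1, RPN1 and HERPUD1 are higher in both input Tg libraries than in both input DMSO libraries, and SYVN1 has 14.4 and 12.9 RPKM in IP Tg against 2.39 and 3.92 RPKM in input Tg.

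The first comparison asked how the genes responded to Tg in the Subunit-Seq input, that is, in total RNA of the tagged cells. Most of them were higher with Tg, in every subgroup, and the largest difference was that of HERPUD1, an ER membrane protein that assembles the ERAD complex around SYVN1. HERPUD1 had 17.9 and 23.0 RPKM in input Tg, against 5.06 and 2.52 RPKM in input DMSO. Both Tg libraries were above both DMSO libraries, a log2(RPKM + 1) difference of 2.20 ± 0.67 (SE). SEC61A1, the pore subunit of the channel, had 15.8 and 50.6 RPKM in input Tg, against 9.16 and 5.52 RPKM in input DMSO. RPN1, an OST subunit, had 35.5 and 97.1 RPKM in input Tg, against 16.5 and 18.9 RPKM in input DMSO. Neither gene overlapped between the groups, with differences of 1.86 ± 0.66 for SEC61A1 and 1.68 ± 0.65 for RPN1. SRP14 was the lowest gene of the list, with 148 and 130 RPKM in input Tg, against 206 and 153 RPKM in input DMSO. Its difference was -0.35 ± 0.59, and both Tg libraries were below both DMSO libraries.

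None of the 37 genes passed an adjusted p of 0.05 (limma, two-sided, Benjamini-Hochberg over 9813 genes), where 0.051% of all genes were called higher and 0% lower. At an unadjusted p under 0.05 the list held 10 genes by limma on RPKM, against 3.29% of all genes, and 12 by voom on the recovered reads, against 1.94%. Voom called 0 of them after adjustment. The median difference of the list was 0.96, against 0.15 for all genes, so the list lay 0.80 above the all-gene median, with 31 of 37 genes above it. Within replicate 1 the list lay 0.94 above the all-gene median and within replicate 2 it lay 0.86 above. The input Tg value was higher within both replicate numbers for 30 of 37 genes, against 18% of all genes, and lower within both for 2, against 14.5%. Both Tg libraries were above both DMSO libraries for 23 genes, against 6.39% of all genes, and below both for 1, against 8.23%. The 37 genes behind these counts and medians include DERL3, EDEM3 and SYVN1, which passed the limit only through input Tg. Without them both Tg libraries were above both DMSO libraries for 21 of 34 genes.

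Every subgroup median lay above that of all genes. Higher within both replicate numbers were 7 of 7 OST genes, 8 of 9 ERAD genes, 12 of 14 translocation genes and 3 of 7 SRP genes. The ERAD genes DERL3, EDEM3 and SYVN1 averaged under 1 RPKM in input DMSO and passed the limit only through input Tg, and without them 5 of 6 ERAD genes and 27 of 34 genes in all were higher within both. With no limit on the level, 9 of 10 ERAD genes, 4 of 8 SRP genes and 32 of all 39 genes were. The medians relative to all genes were 0.94 for OST, 0.86 for SRP, 0.76 for ERAD and 0.66 for translocation, with DERL3, EDEM3 and SYVN1 included. Their order changed between replicates 1 and 2, with SRP at 0.34 and 1.04 and translocation at 1.01 and 0.35. Signal peptidase has alternative catalytic subunits, SEC11A and SEC11C, and these stood apart. SEC11C had 14.5 and 36.2 RPKM in input Tg, against 6.92 and 14.4 RPKM in input DMSO, a difference of 1.12 ± 0.67. SEC11A had 14.2 and 24.1 RPKM in input Tg, against 22.3 and 24.4 RPKM in input DMSO, a difference of -0.32 ± 0.67. The difference between these 2 genes was not tested. The subunits of TRAP were all higher within both replicate numbers, with differences of 0.77 ± 0.57 for SSR4, 1.14 ± 0.66 for SSR2, 1.56 ± 0.65 for SSR3 and 1.61 ± 0.65 for SSR1. DERL3, at 4.75 and 4.97 RPKM in input Tg against 1.17 and 0.144 RPKM in input DMSO, had a difference of 1.90 ± 0.59 and rested on 36 and 8 reads in the DMSO libraries. Its mean reached 1 RPKM over the inputs only through the Tg libraries, so its difference had to be positive and carries no weight as a result. Both SRP receptor subunits were apart between the groups, with differences of 1.54 ± 0.66 for SRPRA and 1.44 ± 0.67 for SRPRB, while SRP68 and SRP72, the large partners that bind the SRP RNA together, were at 1.02 ± 0.67 and 1.04 ± 0.67 with groups that overlapped. The derlins DERL1 and DERL2, thought to help move substrates out of the ER, were at 0.73 ± 0.62 and 0.71 ± 0.62. DDOST, an OST subunit needed for its assembly, was at 1.09 ± 0.64 and the signal peptidase subunit SPCS2 at 1.09 ± 0.67, while SPCS1, a peptidase subunit not needed for cleavage itself, was at 0.15 ± 0.67.

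**Figure D2:**
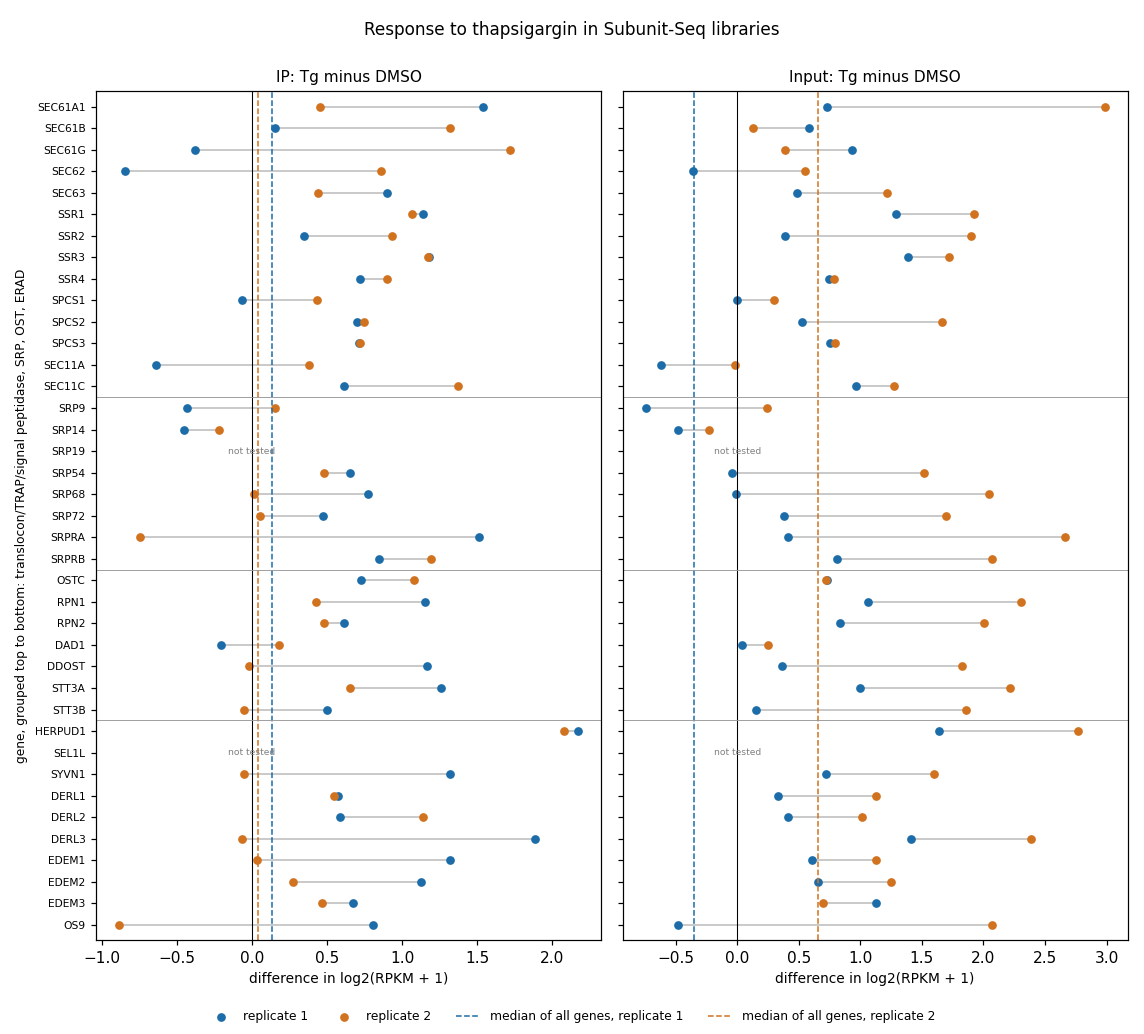
Difference in log2(RPKM + 1) between Tg and DMSO for each gene within replicate 1 and replicate 2 (points), in IP libraries (left) and input libraries (right), with dashed lines at the median of all genes tested. In the input, 30 of 37 genes lie right of 0 in both replicates, and HERPUD1 lies at 1.64 and 2.77; in the IP it lies at 2.17 and 2.07.

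Promoters were searched for the elements through which ER stress factors are known to act, and those printed here are the ones with a match among the listed genes, beside SRP14, the gene with the lowest Tg difference in the input. The 250 bases before each start site are given 5′ to 3′ on the gene's strand from RefSeq (GRCh38.p14), and capitals mark the matches. They are HERPUD1 at chr16:56931892-56932141 (plus strand), SEC62 at chr3:169966557-169966806 (plus), SRP19 at chr5:112861037-112861286 (plus) and SRP14 at chr15:40039203-40039452 (minus).
HERPUD1: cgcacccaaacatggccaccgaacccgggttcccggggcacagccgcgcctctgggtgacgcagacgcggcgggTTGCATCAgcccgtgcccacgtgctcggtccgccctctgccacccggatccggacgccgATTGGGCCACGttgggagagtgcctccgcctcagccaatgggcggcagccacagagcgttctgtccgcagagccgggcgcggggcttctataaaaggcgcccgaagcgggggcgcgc
SEC62: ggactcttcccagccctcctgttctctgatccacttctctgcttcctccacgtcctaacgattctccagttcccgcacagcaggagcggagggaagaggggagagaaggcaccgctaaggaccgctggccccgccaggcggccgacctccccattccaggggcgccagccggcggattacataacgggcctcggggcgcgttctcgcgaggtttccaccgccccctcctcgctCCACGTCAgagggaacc
SRP19: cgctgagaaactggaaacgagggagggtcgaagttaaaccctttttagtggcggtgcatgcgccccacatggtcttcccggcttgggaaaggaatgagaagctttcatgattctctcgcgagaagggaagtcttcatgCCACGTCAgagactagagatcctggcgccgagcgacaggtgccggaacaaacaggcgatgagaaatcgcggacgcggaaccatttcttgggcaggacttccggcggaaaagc
SRP14: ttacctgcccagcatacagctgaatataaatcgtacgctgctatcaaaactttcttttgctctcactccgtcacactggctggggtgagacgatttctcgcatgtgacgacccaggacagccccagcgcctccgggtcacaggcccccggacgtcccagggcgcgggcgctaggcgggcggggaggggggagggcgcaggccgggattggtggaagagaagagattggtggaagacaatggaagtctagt

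Of the 39 genes, 33 had an entry in the promoter table, which spans 250 bases before to 50 after the start site. The ER stress response element ERSE-II was found on either strand in 1 of the 33 (3.03%), HERPUD1, at -117 to -107 from the start site, and in 0.0549% of 27305 promoters. The C/EBP-ATF element TGATGCAA was found in HERPUD1 alone (3.03%), at -176 to -169 on the minus strand, and in 0.923% of promoters. The UPRE core TGACGTGG was found in SEC62 at -17 to -10 and in SRP19 at -112 to -105, both on the minus strand, or 6.06% of the list against 0.795% of promoters. The longer ERSE matched none of the 33 and 0.0806% of promoters. No match in the listed genes overlapped another. The gene with most Tg difference in the input, HERPUD1, was the one with 2 of the searched elements, while SEC62, with a UPRE core, differed by 0.09 ± 0.64 (2.47 and 2.01 RPKM in input Tg, 3.46 and 1.06 RPKM in input DMSO). Any link between the elements and the Tg differences was not tested.

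The same question was put to the RNA-Seq libraries of WT cells. The difference was positive for 34 of 38 genes. It was larger than its own SE only for EDEM2, SRPRA and SSR1, in a fit with no replicate term. In the input it was positive for 34 of 37 genes, and the sign differed between the 2 assays for SEC61B, SPCS1, DAD1, SEC11A and SRP9. SSR3, the gamma subunit of TRAP, had the largest difference, with 40.4 and 31.7 RPKM in WT Tg, against 29.3 and 13.5 RPKM in WT DMSO (0.81 ± 0.86). DAD1 had the lowest, -0.12 ± 0.94, and its WT groups overlapped. HERPUD1 had 19.5 and 18.5 RPKM in WT Tg, against 20.6 and 8.69 RPKM in WT DMSO, so that it was higher within replicate 2 only. EDEM2, which trims mannose from glycoproteins and is the second most abundant ERAD gene, had 6.88 and 17.2 RPKM in WT Tg, against 4.96 and 8.44 RPKM in WT DMSO (0.68 ± 0.67).

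No gene of the list, and 0% of 9637 genes, was called higher or lower in WT cells by limma, and voom also called 0. At an unadjusted p under 0.05 the list held 0 genes by either tool, against 0.249% of all genes by limma and 0.0726% by voom. The list lay 0.20 above the all-gene median of 0.12, with 31 of 38 genes above it, and 0.17 and 0.41 above it within replicates 1 and 2. Higher within both replicate numbers were 23 of 38 genes, against 38.1% of all genes, and lower within both were 0, against 15.4%. Both WT Tg libraries were above both WT DMSO libraries for 6 genes, against 6.55% of all genes: SEC61A1, SSR2, SSR3, SRPRA, SRPRB and RPN1. The opposite held for 0 genes, against 3.73%. Without WT DMSO replicate 2 the list lay at -0.03 relative to all genes. Among the subgroups, the median relative to all genes was 0.26 for OST, 0.21 for SRP, 0.19 for translocation and 0.18 for ERAD. The order changed between replicates 1 and 2, with OST at 0.06 and 0.41 and ERAD at 0.22 and 0.02.

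In DD cells the list did not lie above other genes with Tg. SSR4 was lowest, with the values given above (90.6 and 24.5 RPKM in DD Tg against 129 and 131 RPKM in DD DMSO) and a difference of -1.44 ± 1.00. Both DD Tg libraries were below both DD DMSO libraries. STT3B, a catalytic OST subunit, was highest, with 8.79 and 14.7 RPKM in DD Tg, against 11.1 and 3.73 RPKM in DD DMSO. Its difference of 0.72 ± 0.77 came from replicate 2, and the groups overlapped. HERPUD1 had 19.6 and 3.41 RPKM in DD Tg, against 23.8 and 7.39 RPKM in DD DMSO, lower within both replicate numbers. EDEM2 had 6.87 and 2.61 RPKM in DD Tg, against 7.74 and 9.74 RPKM in DD DMSO.

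Limma called 0 genes of the list and 0% of all genes in DD cells, and voom called 0. At an unadjusted p under 0.05 both held 0 genes of the list, against 0.259% of all genes by limma and 0.083% by voom. The list lay 0.15 below the all-gene median of 0.02, with 11 of 38 genes above it. Lower within both replicate numbers were 10 genes, against 10.8% of all genes, and higher within both were 4, against 18.6%. Both DD Tg libraries were above both DD DMSO libraries for 3 genes, against 8.59% of all genes, and below for 3, against 4.14%. Without DD Tg replicate 2 the list lay 0.12 above the all-gene median, and without DD DMSO replicate 1 it lay 0.05 above. By subgroup the relative medians were -0.27 for translocation, -0.27 for OST, -0.09 for ERAD and 0.04 for SRP.

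**Figure D3:**
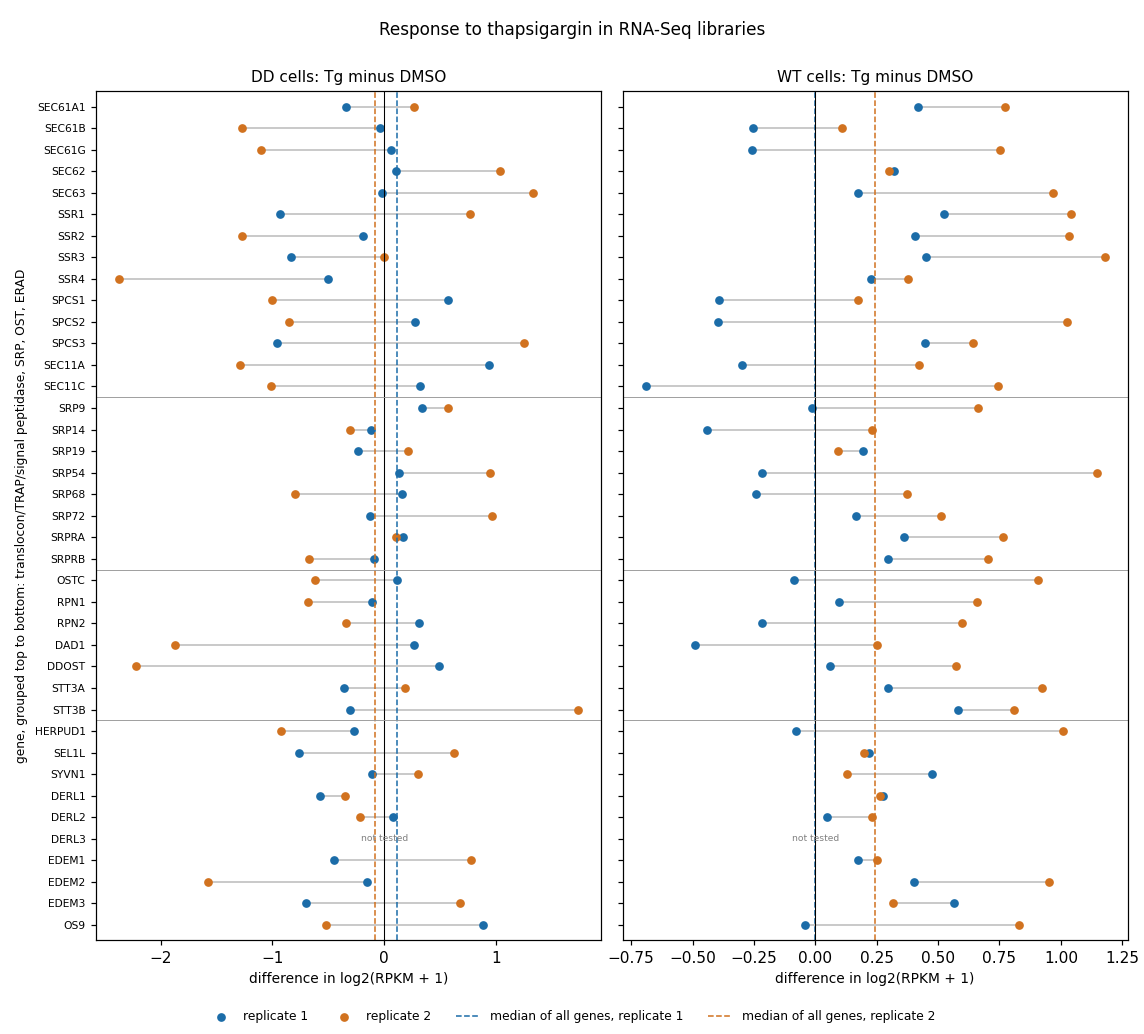
Difference in log2(RPKM + 1) between Tg and DMSO for each gene within replicate 1 and replicate 2 (points) in DD cells (left) and WT cells (right), with dashed lines at the median of all genes tested. In WT cells 23 of 38 genes lie right of 0 in both replicates; in DD cells 4 do, and SSR4 and DDOST lie at -2.37 and -2.22 in replicate 2.

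DD cells were then set against WT cells. In DMSO the list was close to other genes, at 0.08 above the all-gene median of 0.13, with 24 of 38 genes above it. SSR3 was highest, with 63.5 and 16.0 RPKM in DD DMSO, against 29.3 and 13.5 RPKM in WT DMSO (0.66 ± 0.86). SEC61B was lowest, at -0.49 ± 0.90, and its groups overlapped. Limma and voom called 0 genes of the list at this contrast, with 0% of all genes called. The list held 0 genes at an unadjusted p under 0.05 by either tool, against 0.706% of all genes by limma and 0.301% by voom. Higher within both replicate numbers were 21 genes, against 37.6% of all genes, and lower within both were 2, against 17.1%. The groups were apart for 2 of 38 genes, both higher in DD DMSO, a smaller share than the 11.1% of all genes: SRPRA at 6.5 and 6.65 RPKM in DD DMSO against 5.73 and 5.48 RPKM in WT DMSO, and SRPRB at 26.4 and 18.6 RPKM in DD DMSO against 17.5 and 13.4 RPKM in WT DMSO. No gene was apart in the lower direction (4.7%). The list lay at -0.11 relative to all genes without WT DMSO replicate 2 and at -0.16 without DD DMSO replicate 1.

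With Tg, the list lay 0.29 below the all-gene median of 0.05 in DD cells, with 9 of 38 genes above it. SSR4 was lowest at -2.22 ± 1.00, and SEC62 was highest. SEC62, which helps short and weakly recognised precursors into the channel, had 6.60 and 8.96 RPKM in DD Tg, against 6.57 and 2.29 RPKM in WT Tg (0.80 ± 0.63). Both DD libraries were above both WT libraries, by a margin in replicate 1 of 0.01 on the log2 scale. SSR2, the beta subunit of TRAP, had 19.5 and 6.09 RPKM in DD Tg, against 26.2 and 41.7 RPKM in WT Tg (-1.50 ± 0.73). Limma called 0 genes of the list and 0% of all genes, and voom called 0. At an unadjusted p under 0.05 the list held 0 genes by limma and 1 by voom, against 0.851% and 0.467% of all genes.

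Replicate 2 carried most of these differences. The relative median was -0.17 within replicate 1 and -0.54 within replicate 2, and for OST genes it was 0.22 within replicate 1 and -1.24 within replicate 2. Lower within both replicate numbers were 9 genes, against 11% of all genes, and higher within both were 2, against 20.1%. The groups were apart for 5 genes lower in DD Tg (6.06% of all genes), namely SEC61A1, SSR2, SSR4, SRPRA and EDEM2, and for 2 higher (10.2%), SEC62 and SRP14. Without DD Tg replicate 2 the list lay at 0.0067 relative to all genes, and without DD Tg replicate 1 it lay at -0.64. The part of that library's mitochondrial share of 57.3% in these values was not tested.

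The Tg difference in DD cells minus that in WT cells was tested directly as an interaction. It ranged over the list from -1.74 ± 1.41 for SSR4 to 0.26 ± 0.90 for SEC62. Its median lay 0.32 below the all-gene median, and 7 of 38 genes were above that median. Limma and voom each called 0 genes of the list, with 0% of all genes called. The list held 0 genes at an unadjusted p under 0.05, against 0.218% of all genes by limma and 0.0623% by voom. Negative within both replicate numbers were 12 genes, against 16.4% of all genes, and positive within both were 0, against 13.8%. Over the libraries left out in turn the relative median stayed between -0.61 and -0.16.

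Subunit-Seq was used to ask which of these mRNAs were recovered with the cap-binding domain of eIF3d beyond their level in the input. IP values exceeded input values for most of the 9813 genes tested, with an all-gene median of 0.96 with DMSO and 0.87 with Tg (0.21 and 0.23 over 31093 genes with no filter). Scaling the libraries by median ratios moved these medians to 0.01 and 0.01, so the called differences are also given relative to the all-gene median. Under that scaling no gene of the list was called, with 20 genes called in all with DMSO and 64 with Tg. With no filter on low values, or with no replicate block, no gene of the list was called either, and voom called 5 with DMSO and 0 with Tg. Of all genes, 0 were called with no filter. With no replicate block 24 were called with DMSO and 36 with Tg, and by voom 595 and 172.

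With DMSO, the differences over input were highest for SEC62, SEC61A1 and SYVN1 and lowest for SSR4, SEC61B and DAD1. SEC62 had 18.3 and 19.5 RPKM in IP DMSO, against 3.46 and 1.06 RPKM in input DMSO, both above both inputs. Its difference of 2.71 ± 0.64 passed the test (limma, adjusted p = 0.00136) and lay 1.75 above the all-gene median. SEC61A1 had 27.8 and 84.8 RPKM in IP DMSO, against 9.16 and 5.52 RPKM in input DMSO, and rose by 2.61 ± 0.66 (limma, adjusted p = 0.00284), 1.65 above the all-gene median. SEC63, the channel partner that engages the chaperone HSPA5, had 12.4 and 9.92 RPKM in IP DMSO, against 2.45 and 1.07 RPKM in input DMSO (2.18 ± 0.64, limma adjusted p = 0.00999, 1.22 above the all-gene median). SEC61A1 and SEC63 also had both IP libraries above both inputs. SSR4 went the other way, with 46.9 and 99.9 RPKM in IP DMSO, against 189 and 318 RPKM in input DMSO. It fell by 1.82 ± 0.57 in the IP (limma, adjusted p = 0.0151), 2.79 below the all-gene median.

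Among ERAD genes, SYVN1, the ubiquitin ligase also called HRD1, had 5.18 and 13.4 RPKM in IP DMSO, against 1.05 and 0.623 RPKM in input DMSO (2.37 ± 0.63, limma adjusted p = 0.00395, 1.41 above the all-gene median). OS9, a lectin that brings trimmed glycoproteins to SYVN1, had 9.54 and 15.3 RPKM in IP DMSO, against 2.71 and 1.11 RPKM in input DMSO (2.23 ± 0.64, limma adjusted p = 0.00803, 1.27 above). Both genes were higher in each IP library than in each input. The mannosidase-like EDEM1 had 5.33 and 6.81 RPKM in IP DMSO, against 2.27 and 0.243 RPKM in input DMSO (1.80 ± 0.62, limma adjusted p = 0.0254, 0.84 above). EDEM3 had 2.67 and 4.86 RPKM in IP DMSO, against 0.914 and 0.0439 RPKM in input DMSO (1.71 ± 0.60, limma adjusted p = 0.0278, 0.75 above). The lowest input values of these 2 genes rest on 24 and 5 reads in input DMSO replicate 2. SYVN1 and EDEM3 averaged under 1 RPKM in input DMSO and passed the limit for testing only through input Tg. A low input DMSO level favours a positive difference here, so the calls of SYVN1 and EDEM3 carry no weight.

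Among OST and SRP genes, STT3B had 13.5 and 18.6 RPKM in IP DMSO, against 5.18 and 1.49 RPKM in input DMSO (2.10 ± 0.65, limma adjusted p = 0.0142, 1.14 above the all-gene median). STT3A, the catalytic subunit that works at the channel, had 14.2 and 16.1 RPKM in IP DMSO, against 4.47 and 2.47 RPKM in input DMSO (1.89 ± 0.66, limma adjusted p = 0.0282, 0.93 above). RPN2 had 52.1 and 108 RPKM in IP DMSO, against 14.1 and 28.1 RPKM in input DMSO (1.86 ± 0.65, limma adjusted p = 0.0266, 0.90 above). So both catalytic OST subunits and RPN2 passed the test, while the small subunit DAD1 had 87.1 and 115 RPKM in IP DMSO against 163 and 216 RPKM in input DMSO (-0.89 ± 0.59, 1.86 below the all-gene median). SRP54, which binds the signal peptide, had 10.8 and 11.8 RPKM in IP DMSO, against 5.39 and 1.32 RPKM in input DMSO (1.68 ± 0.65, limma adjusted p = 0.0449, 0.71 above). RPN1 (1.64 ± 0.65, limma adjusted p = 0.0498, 0.68 above) and the signal peptidase subunit SPCS3 (1.62 ± 0.64, limma adjusted p = 0.0495, 0.66 above) were just inside the threshold.

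In all, 13 of 37 genes were called higher in IP DMSO, against 21.4% of all genes, and 1 lower, against 1.75%. The 13 include SYVN1 and EDEM3, which passed the limit only through input Tg. The 37 also include DERL3, which passed in the same way. The median of the list lay 0.12 above the all-gene median, with 20 of 37 genes above it, but at -0.06 with median-ratio scaling and at -0.033 with voom, with 18 of 37 above in each. By subgroup the relative median was 0.68 for OST, 0.43 for SRP, 0.37 for ERAD and -0.35 for translocation. The order changed between replicates 1 and 2, with OST at 0.85 and 0.33, SRP at 0.20 and 0.69, and ERAD at 0.56 and 0.21. Translocation changed sign, at 0.26 and -0.69. Within both replicate numbers 25 genes were higher, against 64% of all genes, and 6 were lower, against 9.97%. Both IP DMSO libraries were above both inputs for 24 genes, against 56% of all genes, and below both for 6, against 6.76%. The calls, of the list and of all genes, depended on input DMSO replicate 2. Without it the all-gene median was 0.41, and without input DMSO replicate 1 it was 1.52. The list lay 0.19 and 0.11 above these medians. The calls depended on IP DMSO replicate 2 as well, without which the all-gene median was 0.72 and the list lay 0.23 above it.

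With Tg, SEC62 again stood highest, with 9.76 and 36.1 RPKM in IP Tg, against 2.47 and 2.01 RPKM in input Tg (2.63 ± 0.64, limma adjusted p = 0.00161), 1.75 above the all-gene median. SEC63 had 24.0 and 13.8 RPKM in IP Tg, against 3.83 and 3.79 RPKM in input Tg (2.00 ± 0.64, limma adjusted p = 0.021, 1.12 above). SYVN1 had 14.4 and 12.9 RPKM in IP Tg, against 2.39 and 3.92 RPKM in input Tg (1.84 ± 0.63, limma adjusted p = 0.0294, 0.97 above). These 3 genes had IP libraries above both inputs. SRP9 had 272 and 396 RPKM in IP Tg, against 109 and 122 RPKM in input Tg (1.5 ± 0.56, limma adjusted p = 0.0471, 0.62 above). SSR4 had 77.8 and 187 RPKM in IP Tg, against 318 and 550 RPKM in input Tg, and fell by 1.78 ± 0.57 in the IP (limma, adjusted p = 0.0215), 2.66 below the all-gene median.

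So 4 of 37 genes were called higher in IP Tg, against 14.6% of all genes, and 1 lower, against 1.62%. Of the 14 genes called with DMSO, 4 (28.6%) were also called with Tg, and they were 4 of the 5 called with Tg (80.0%): SEC62, SEC63, SYVN1 and SSR4. SYVN1 passed the limit only through input Tg, so its call with DMSO carries no weight. The list lay 0.21 below the all-gene median with Tg, with 16 of 37 genes above it; it lay 0.33 below with median-ratio scaling, 0.41 below with voom and 0.52 above with no filter. Its relative medians were 0.29 for ERAD, -0.12 for OST, -0.21 for SRP and -0.40 for translocation. The OST value changed sign, at 0.51 within replicate 1 and -0.70 within replicate 2. Within both replicate numbers 25 genes were higher, against 72.2% of all genes, and 6 were lower, against 9.52%. Both IP Tg libraries were above both inputs for 16 genes, against 64.7% of all genes, and below both for 5, against 6.35%: SSR4, SEC61B, DAD1, SRP14 and DERL3. DERL3, also 1 of the 6 lower within both replicate numbers, passed the limit only through input Tg. That favours a negative difference here, so its place in these counts carries no weight. The calls, of the list and of all genes, depended on which library was left out. The all-gene median was 1.03 without IP Tg replicate 1 and 0.72 without IP Tg replicate 2. It was 0.69 without input Tg replicate 1 and 1.01 without input Tg replicate 2. Relative to these medians the list lay at -0.30, -0.16, -0.36 and -0.09.

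The 6 genes lower within both replicate numbers with DMSO were DAD1, SEC61B, SEC61G, SRP14, SSR4 and SPCS1. The gene lengths behind their RPKM values ran from 808 to 5324 bases with a median of 1923, against 1728 to 11349 bases with a median of 5496 for the 25 genes that were higher. Within the channel, SEC61A1 was at 2.61 ± 0.66, while SEC61B at -1.10 ± 0.57 and SEC61G at -0.72 ± 0.60 did not pass the test. The difference between these subunits was not tested. Across the 37 genes the IP minus input difference with DMSO had a Spearman rho of 0.533 with gene length, against 0.485 over 9800 genes, and of -0.673 with the mean input level, against -0.30 over 9813 genes. With Tg the rho with length was 0.552 for the list and 0.385 for all genes. These correlations are across genes that share the same 4 libraries, and the input enters both measures of the second. IDH3G overlaps SSR4 in RefSeq, RUVBL1 overlaps SEC61A1 and MRPL49 overlaps SYVN1, and the sources used here do not say how reads in such stretches were counted.

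**Figure D4:**
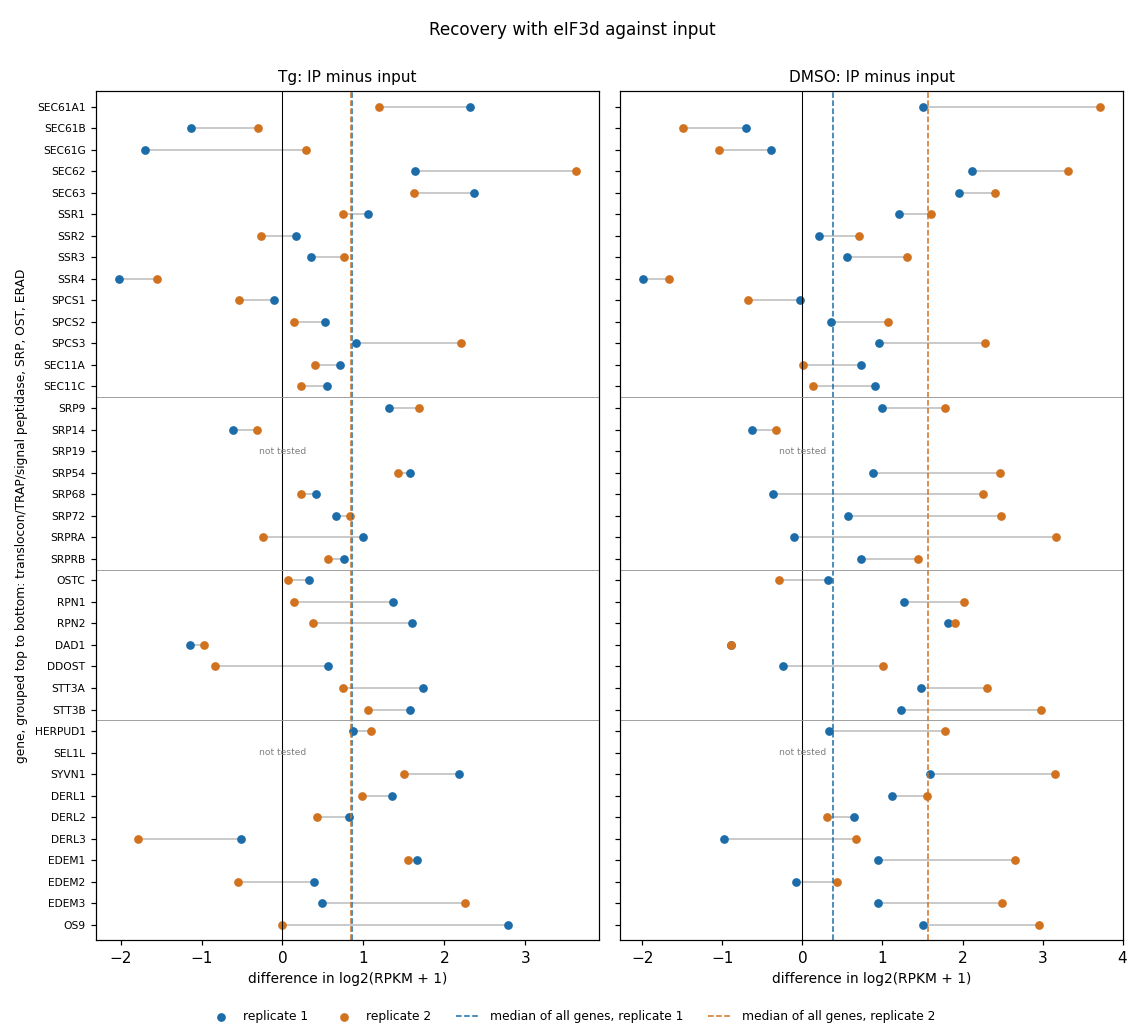
Difference in log2(RPKM + 1) between IP and input for each gene within replicate 1 and replicate 2 (points), with Tg (left) and with DMSO (right), and dashed lines at the median of all genes tested. SSR4 lies at -2.02 and -1.55 with Tg and at -1.99 and -1.66 with DMSO, left of every other gene in both treatments in replicate 1, and SEC62 lies at 1.63 and 3.62 with Tg and at 2.12 and 3.31 with DMSO.

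The RNA recovered with eIF3d was also compared between treatments. HERPUD1 had 33.5 and 50.1 RPKM in IP Tg, against 6.66 and 11.1 RPKM in IP DMSO, a difference of 2.12 ± 0.67 that was 2.17 within replicate 1 and 2.07 within replicate 2. SRP14 was lowest, with 96.3 and 104 RPKM in IP Tg, against 132 and 122 RPKM in IP DMSO (-0.34 ± 0.59). Both genes were apart between the groups. SSR3, the next gene after HERPUD1, had 73.3 and 130 RPKM in IP Tg, against 31.8 and 57.2 RPKM in IP DMSO (1.18 ± 0.65). Limma called 0 genes of the list, where 0.051% of all genes were called higher and 0.0204% lower, and the list held 1 gene at an unadjusted p under 0.05. Voom called 0 and held 2. Of all genes, 1.68% by limma and 0.815% by voom were under that unadjusted p. The list lay 0.60 above the all-gene median of 0.07, with 31 of 37 genes above it, and 0.58 and 0.42 above it within replicates 1 and 2. Higher within both replicate numbers were 24 genes, against 29.6% of all genes, and lower within both was 1, against 14.5%. Both IP Tg libraries were above both IP DMSO libraries for 18 genes, against 18.1% of all genes, and below for 1, against 7.48%.

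The Tg difference in the IP and that in the input were then set against each other, as the IP over input difference with Tg minus that with DMSO. It ran from -1.16 ± 0.94 for SRPRA to 0.38 ± 0.80 for SEC61B. SRPRA, the SRP receptor subunit that meets SRP54, had 30.4 and 14.2 RPKM in IP Tg and 14.8 and 17.0 RPKM in input Tg, against 10.0 and 24.6 RPKM in IP DMSO and 10.9 and 1.84 RPKM in input DMSO. Its replicates went opposite ways, at 1.09 and -3.41. SEC61B had 143 and 222 RPKM in IP Tg and 313 and 274 RPKM in input Tg, against 128 and 88.3 RPKM in IP DMSO and 209 and 250 RPKM in input DMSO. HERPUD1 was at -0.08 ± 0.94, and its replicates went opposite ways, at 0.53 and -0.69. Its mean Tg difference was 2.12 in the IP and 2.20 in the input. Limma called 0 genes of the list, where 0% of all genes were called higher and 0.0611% lower, and voom called 0. At an unadjusted p under 0.05 the list held 0 genes by either tool, against 0.876% of all genes by limma and 0.163% by voom. The list lay 0.19 below the all-gene median, with 10 of 37 genes above it, and 0.38 and 0.23 below it within replicates 1 and 2. Negative within both replicate numbers were 7 genes, against 8.61% of all genes, and positive within both were 3, against 13.5%. DERL3, EDEM3 and SYVN1, at -0.99, -0.34 and -0.53, passed the limit only through input Tg. That favours a negative difference here, so their place in these counts and medians carries no weight.

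**Figure D5:**
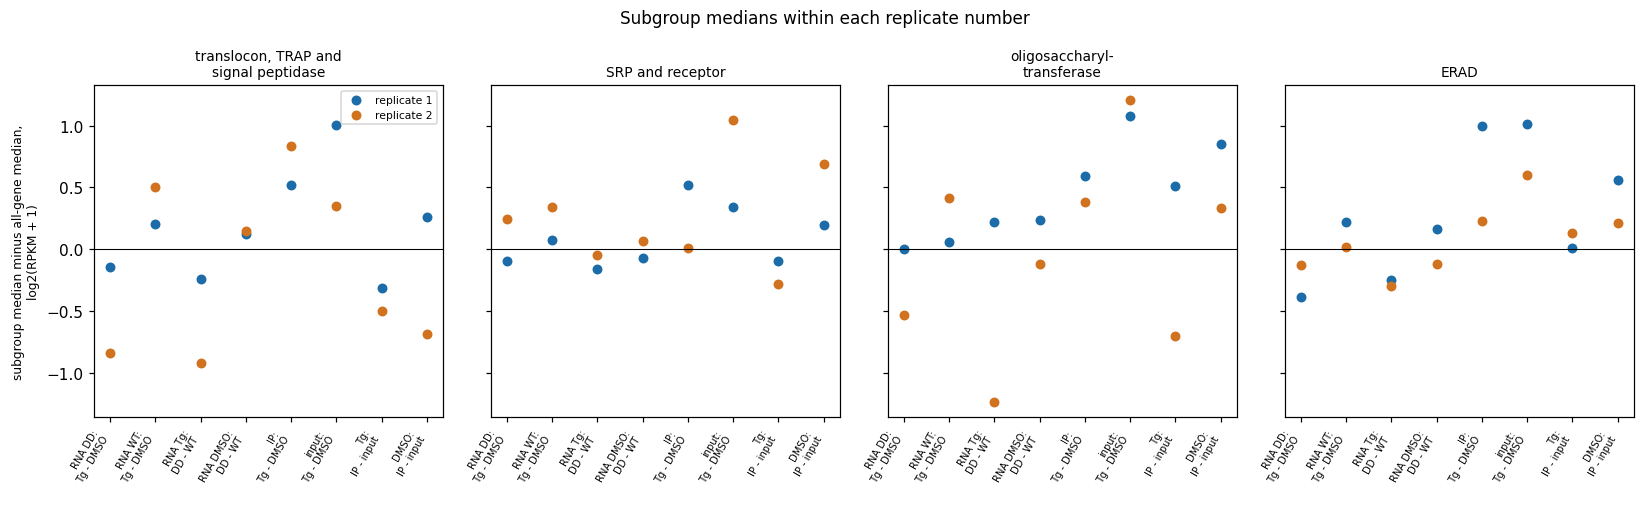
Median of each subgroup minus the median of all genes tested, in log2(RPKM + 1), within replicate 1 and replicate 2 (points) for 8 comparisons. The input Tg minus DMSO values lie above 0 in both replicates for all 4 subgroups, and the DD minus WT values with Tg are -1.24 for OST and -0.92 for translocation in replicate 2.

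Of 84 other genes of the same pathway, 76 were tested in the input, and 59 of these lay above the all-gene median with Tg. All 16 tested chaperones and stress sensors, such as HSPA5 and XBP1, lay above the all-gene median with Tg, by a median of 1.5 more than all genes. Of the other ERAD genes 18 of 22 did so (0.35), of the glycan genes 15 of 22 (0.47) and of the membrane insertion genes 10 of 16 (0.19). None of these 76 genes was called. Among them DNAJB11, EMC1, GET4, ALG12 and UGGT1 averaged under 1 RPKM in input DMSO and passed the limit only through input Tg. In WT RNA-Seq libraries 16 of 16 chaperones and sensors lay above the all-gene median (0.45), and in DD libraries 6 of 16 did (-0.14), with 0 called in either. In IP over input with DMSO, 28 of the 76 (36.8%) were called, all higher, against 21.4% of all genes, among them 11 of 16 chaperones and sensors, 8 of 22 other ERAD genes, 6 of 22 glycan genes and 3 of 16 insertion genes. The 28 include DNAJB11, EMC1 and UGGT1, whose low input DMSO level favours a positive difference, so their calls carry no weight. Calls among all genes fell to 0 with no filter and to 20 with median-ratio scaling. With Tg 13 of the 76 (17.1%) were called, all higher, close to the 14.6% of all genes.

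Called m6A sites fell within the RefSeq spans of 17 of the 39 genes, at 29 distinct positions, against 23.9% of 9143 genes tested in RNA-Seq with a span. The DD Tg list placed 19 sites in 13 genes, the WT Tg list 1 site in 1 gene, the DD DMSO list 8 sites in 6 genes and the WT DMSO list 9 sites in 8 genes. The lists themselves differ in length, at 5050 sites for DD Tg, 1572 for WT Tg, 1796 for DD DMSO and 3000 for WT DMSO, and have no replicates, so these counts carry no test. SSR4 had most sites, 4, of which 3 were in the DD Tg list and 1 in the DD DMSO list. SSR1, the alpha subunit of TRAP, and SSR2 had 3 each, and HERPUD1 had 1, in the DD Tg list. By role, 9 of the 17 genes belonged to the translocation subgroup. On the strand of the gene there were 24 sites in 15 genes, and the sites within SPCS1 and RPN1 lay on the opposite strand only.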

How the data were processed

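Gene levels of both assays were deposited by the authors as RPKM, per the file headers. Per the submitters' processing notes the authors' tools were cutadapt, STAR, DESeq2 and BWA and the build was GRCh38; the gene counter, annotation and strand setting are not given in the sources used here. The deposited m6A files are the authors' called site positions with strand, assigned here to RefSeq gene spans. Symbols matched 58252 of 58721 genes (99.2%).

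RPKM values were whole multiples of a step per gene and library. Of 26179 genes above 0 in at least 3 libraries, all had a step and 26169 gave whole reads within 0.02 in every library, which gave the depths and the reads for voom. A count of 0 allows up to 3 reads, and such limits cover counting error only.

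Values were analysed as log2(RPKM + 1) with limma 3.58.1 in R 4.3.3 (intensity trend, two-sided, Benjamini-Hochberg adjustment over all genes tested, threshold 0.05), for 9637 genes with a mean of at least 1 RPKM over RNA-Seq and 9813 with that mean over the inputs. RNA-Seq was fitted with no replicate term (4 residual degrees of freedom, prior 5.73), so its SEs include any shift shared by a replicate number. Subunit-Seq was fitted with replicate number as a block, since each replicate number was deposited as its own table, and 3 residual degrees of freedom with the spread pooled over genes. Replicate differences correlated between Subunit-Seq groups with r from 0.002 to 0.51. Errors of log2 differences are the standard error of the fit. The code was tested on simulated data.

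The 39 genes, the pathway lists and the rule for which values are given were chosen with earlier results of these data known. The rule names called genes (at most 12 per comparison), the 2 most abundant genes of each subgroup, and the genes with the largest and smallest difference per comparison. Other genes were named after their values were seen. No set test was run. Comparisons that share libraries are Tg with DMSO and DD with WT in RNA-Seq, and all those of Subunit-Seq. Alternatives tried were a pseudocount of 0.5, no filter or a mean of at least 5 RPKM, median-ratio scaling, voom on reads, the replicate block and leaving out each library.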

Additional observations from a re-analysis of the deposited data

Results flagged for a closer look

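In RNA-Seq, the Tg difference was positive within both replicate numbers in WT cells and negative within both in DD cells for 7 of the 38 tested genes, against 3.91% of all 9637 genes. The Tg difference in DD minus that in WT, in log2(RPKM + 1) with its SE, was -1.74 ± 1.41 for SSR4, -1.54 ± 0.94 for EDEM2, -1.45 ± 1.03 for SSR2, -1.23 ± 1.21 for SSR3, -0.88 ± 0.95 for SRPRB, -0.77 ± 1.13 for RPN1 and -0.73 ± 0.80 for DERL1. None passed limma's interaction test (adjusted p = 1.0 for each).

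The DD minus WT difference was positive within both replicate numbers with DMSO and negative within both with Tg for 5 of 38 genes, against 2.24% of all genes. These were EDEM2, SSR3 and DERL1, with the same values, STT3A at -0.695 ± 1.06 and SRPRA at -0.43 ± 0.75, and none passed the same test (limma, adjusted p = 1.0 for each). Several of these signs rest on values close to 0: SSR3 at replicate 2 for Tg in DD cells (-0.0003), and for DD against WT EDEM2 at replicate 1 with Tg (-0.0018), DERL1 at replicate 2 with DMSO (0.038) and SRPRA at replicate 1 with Tg (-0.0411). The part of DD Tg replicate 2, with its mitochondrial share of 57.3%, was not tested.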

How the results depend on the processing

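In RNA-Seq no gene of the list was called under any alternative. Its median relative to all genes was, for Tg against DMSO in WT cells, 0.33 with no filter, against 0.20. For Tg against DMSO in DD cells it went to -0.18 with no filter, -0.0212 at a mean of at least 5 RPKM, -0.20 with voom and -0.0546 with the replicate block and without DD Tg replicate 2. For DD against WT with DMSO it was 0.21 with no filter, 0.0387 at a mean of at least 5 RPKM and 0.0512 with median-ratio scaling, against 0.08. In the input, Tg against DMSO, it was 0.89 with a pseudocount of 0.5, 0.91 with no filter, 0.94 at a mean of at least 5 RPKM and 0.89 with voom. For IP over input, Tg minus DMSO, it was -0.30 at a mean of at least 5 RPKM. With no filter it was 0.88 for IP against input with DMSO and 0.52 with Tg. There the all-gene median was 0.21 and 0.23, against 0.96 and 0.87 with the filter. The list's own median was 1.09 with DMSO in both cases, and with Tg it was 0.75, against 0.66 with the filter. Genes of the list called in IP against input with DMSO numbered 0 with no filter, 6 at a mean of at least 5 RPKM, 0 with median-ratio scaling, 5 with voom and 0 with no replicate block. With Tg they numbered 0, 1, 0, 0 and 0. Among all genes tested, in the same order, the calls numbered 0, 695, 20, 595 and 24 with DMSO and 0, 408, 64, 172 and 36 with Tg. The genes tested were 31093 with no filter, 4218 at a mean of at least 5 RPKM and 9813 otherwise. Median-ratio scaling put the list at -0.06 and voom at -0.033 relative to all genes in IP against input with DMSO, against 0.12. No called gene reversed its direction under any alternative. The cause of these changes was not tested. On the gene's strand the WT Tg list held 0 of the genes.

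RNA-Seq groups share replicate numbers, but the labels do not say that a number marks a batch. Replicate differences correlated with r of 0.134, 0.20 and 0.30 in pairs of groups that include DD Tg. In the other pairs r was 0.74, 0.82 and 0.86. With the replicate block limma again called 0 genes of the list in all 5 comparisons, and 67, 77, 227, 254 and 67 genes of all tested were under an unadjusted p of 0.05 (Tg against DMSO in WT, the same in DD, DD against WT with DMSO, the same with Tg, and the interaction), against 24, 25, 68, 82 and 21 without it.

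Leaving out 1 library at a time, a lone library being taken to vary like the other groups, the relative median ranged from -0.0305 to 0.32 for Tg in WT, -0.43 to 0.12 for Tg in DD, -0.16 to 0.32 for DD against WT with DMSO, -0.64 to 0.0067 with Tg, -0.61 to -0.16 for the interaction, 0.72 to 0.99 for the input, 0.30 to 0.85 for IP Tg against IP DMSO and -0.43 to -0.12 for IP over input, Tg minus DMSO. Calls in IP against input ranged from 0 to 22 with DMSO and from 0 to 12 with Tg. Low input depth limits EDEM3 and EDEM1, with 5 and 24 reads in input DMSO replicate 2.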

Other observations

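DERL3, which was under the level needed for testing in RNA-Seq, had 4.76 RPKM in WT Tg replicate 2 from 141 reads. Every other RNA-Seq library had 0.703 RPKM or less, from 26 reads at most, and WT Tg replicate 1 had 0.29 RPKM. In the inputs it had 4.75 and 4.97 RPKM with Tg, against 1.17 and 0.144 RPKM with DMSO, so 1 of the 2 WT Tg libraries of RNA-Seq reached the input Tg level. SMARCB1 overlaps DERL3 in RefSeq.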
